A study of Mus musculus with 12 samples.

Results

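The genes of the MHC class II system were followed in RNA from purified mouse myelin. The 5 genes are Cd74, H2-Aa, H2-Ab1, H2-Eb1 and Ciita, taken by symbol from the 21937 genes of the table, and all 5 passed the filter on low values and were tested. Myelin, a light membrane fraction enriched from brain, came from mice that the study's methods give as male c57Bl6/N, at P18 (postnatal day 18), P75, 6 months and 24 months. The labels mark the libraries WT and name no treatment, and age is what differed between the 4 groups. Each age had 3 libraries, 12 in all, with 20299052 to 27214385 reads on genes per library. The labels call the libraries replicates of an age and name 1 library per replicate number. The study speaks of individual brains at 6 months, and where replicates of an age shared material p-values measure a technical spread.

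MHC class II molecules are pairs of an alpha and a beta chain that present peptides from the endosomes to CD4 T cells. In the endoplasmic reticulum the pair binds the invariant chain, which guides it to endosomes, where cathepsins trim the invariant chain and the H2-DM protein exchanges its last fragment for a peptide. Transcription of the whole set depends on Ciita, the class II transactivator, which does not bind DNA itself but is recruited by factors sitting on the X and Y boxes in front of each class II gene. In the brain, class II is known from microglia, from macrophages of the borders and vessels, and from immune cells that enter the tissue.

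The invariant chain gene and the 3 chain genes among the 5, H2-Aa, H2-Ab1 and H2-Eb1, rose with age. From P18 to 24 months Cd74 rose 6.23-fold (95% interval 4.64 to 8.37), H2-Aa 9.92-fold (6.50 to 15.1), H2-Ab1 3.74-fold (2.66 to 5.26) and H2-Eb1 4.05-fold (2.97 to 5.52). Ciita did not pass the test between any of the 5 pairs of ages compared, and from P18 to 24 months its interval ran from 0.753-fold to 1.92-fold. A fold here is on the scale of log2(normalized read count + 1), which understates the change of low genes. All 5 genes were rare in myelin: their values rested on 6 to 282 reads per library, and at 24 months Cd74 ranked 9414 and Ciita 14740 of the 21937 genes of the table.

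Promoter windows are shown for the sequence elements through which class II genes are controlled. RefSeq windows of the build GRCm38.p6 were at hand for 2 of the 5 genes, H2-Aa and H2-Eb1, and one for H2-DMb1, a peptide loading gene described further on, is set beside them. Each window runs from 250 bases before to 50 bases after the start of the gene, 5′ to 3′ on the strand of the gene. Capitals mark the letters GNAACT, which belong to the X box, and GATTGG, the core of the Y box bound by NF-Y, which holds the letters CCAAT on the other strand. The windows are chr17:34287774-34288073 on the minus strand for H2-Aa, chr17:34305617-34305916 on the plus strand for H2-Eb1 and chr17:34152941-34153240 on the plus strand for H2-DMb1.
H2-Aa: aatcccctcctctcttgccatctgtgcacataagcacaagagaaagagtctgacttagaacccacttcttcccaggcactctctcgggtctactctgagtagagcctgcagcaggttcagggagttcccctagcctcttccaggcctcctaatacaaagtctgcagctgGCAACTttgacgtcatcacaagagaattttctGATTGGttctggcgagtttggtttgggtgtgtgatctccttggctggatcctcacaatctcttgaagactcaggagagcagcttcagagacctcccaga
H2-Eb1: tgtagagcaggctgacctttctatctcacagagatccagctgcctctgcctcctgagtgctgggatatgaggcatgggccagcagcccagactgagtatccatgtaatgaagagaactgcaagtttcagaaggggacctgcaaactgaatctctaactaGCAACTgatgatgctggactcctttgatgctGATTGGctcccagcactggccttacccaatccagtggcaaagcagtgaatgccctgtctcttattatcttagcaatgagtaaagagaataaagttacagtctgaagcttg
H2-DMb1: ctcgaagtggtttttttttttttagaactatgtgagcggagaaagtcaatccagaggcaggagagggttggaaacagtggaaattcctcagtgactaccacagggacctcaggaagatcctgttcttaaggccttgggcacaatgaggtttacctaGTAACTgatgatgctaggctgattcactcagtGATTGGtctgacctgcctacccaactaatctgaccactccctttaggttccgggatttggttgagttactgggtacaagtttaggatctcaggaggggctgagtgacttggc
In the H2-Aa window the letters GCAACT began 81 bases before the start and GATTGG 49 bases before it, 32 bases apart. In the H2-Eb1 window they began 91 and 60 bases before the start, 31 bases apart, and in the H2-DMb1 window GTAACT and GATTGG began 94 and 62 bases before it. The letters were chosen after these windows had been read and were searched on both strands of all 32851 windows, counting a match where GNAACT began 20 to 40 bases before GATTGG on the same strand. GATTGG alone was in 5292 windows (16.1%), and the ordered pair was in 104 (0.317%). H2-Eb2, a second E beta gene, also holds the pair, with GCAACT 132 bases and GATTGG 101 bases before its start, and it had at most 6 reads in any library. The pair was in none of the windows at hand for the other peptide loading genes, H2-Oa, H2-DMa, H2-DMb2 and H2-Ob. That holds for these exact letters only. The H2-Oa and H2-Ob windows hold GCAACA, which differs from GNAACT in its last letter, before GATTGG. A match is a description of the letters and not evidence of binding.

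Cd74 encodes the invariant chain, and its cell surface form is a receptor for the cytokine Mif. In the GENCODE annotation of NCBIM37 (mm9), the build of the deposited values, it maps to chromosome 18 (60963502 to 60972300, plus strand) and has 9 merged exons of 1410 bases. The span of a miRNA gene overlaps it by 88 bases. Its normalized read counts were 30.9, 44.1 and 41.2 at P18, 77.2, 67.7 and 63.0 at P75, 156, 95.9 and 145 at 6 months, and 202, 305 and 235 at 24 months (replicates 1, 2 and 3). Every library stood above all libraries of the ages before it. The means were 38.7 ± 6.92, 69.3 ± 7.21, 132 ± 32.0 and 247 ± 52.5 (SD, n = 3). Cd74 rose at each step, by log2 0.83 (SE 0.20, adjusted p = 0.0035) to P75, by 0.90 (adjusted p = 0.0014) to 6 months and by 0.91 (adjusted p = 0.0071) to 24 months in limma with Benjamini-Hochberg adjustment over all genes tested.

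H2-Aa encodes the alpha chain of the A molecule. It maps to chromosome 17 (34406276 to 34424772, minus strand) and has 9 merged exons of 1987 bases, and its 3′ end overlaps that of H2-Ab1 on the other strand by 88 bases. The strand setting of the counting is not given in the sources used here, so reads in those 88 bases cannot be told apart between the genes. Its normalized read counts were 19.0, 19.2 and 7.03 at P18, 54.1, 49.1 and 48.6 at P75, 99.9, 98.5 and 84.7 at 6 months, and 127, 199 and 123 at 24 months. The ages did not overlap, and the lowest value, in P18 replicate 3, rested on 7 reads. The means were 15.1 ± 6.98, 50.6 ± 3.02, 94.4 ± 8.44 and 150 ± 42.8 (SD, n = 3). The step from P18 to P75 was its largest, log2 1.80 (SE 0.29, adjusted p = 0.00014), rank 52 of the 14634 genes tested by log2 change. It rose by 0.88 (adjusted p = 0.016) to 6 months. The difference of 0.63 from 6 to 24 months missed the threshold (95% interval 0.02 to 1.24, adjusted p = 0.13), passed under 5 of the alternatives described in the closing section, and was 0.41 (adjusted p = 0.42) without 24 months replicate 2.

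H2-Ab1 encodes the beta chain that pairs with H2-Aa. It maps to chromosome 17 (34400154 to 34406363, plus strand) and has 7 merged exons of 1644 bases. Its normalized read counts were 30.9, 38.4 and 20.1 at P18, 44.1, 43.6 and 46.4 at P75, 66.6, 54.1 and 63.2 at 6 months, and 84.2, 148 and 108 at 24 months. Here too no library of a later age fell below one of an earlier age. The means were 29.8 ± 9.21, 44.7 ± 1.52, 61.3 ± 6.46 and 114 ± 32.3 (SD, n = 3). H2-Ab1 rose by log2 0.62 (SE 0.23, adjusted p = 0.043) from P18 to P75, a call lost without P18 replicate 3, where the difference was 0.37, and without P75 replicate 3, where it was 0.59. From P75 to 6 months the difference was 0.44 (95% interval -0.05 to 0.93, adjusted p = 0.12). From 6 to 24 months it rose by 0.85 (adjusted p = 0.02), and without 24 months replicate 2 the difference was 0.64 and missed the threshold.

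H2-Eb1 encodes the beta chain of the E molecule. Its partner, the E alpha chain, is not made in mice of this strain background, where the E alpha gene has lost its promoter. The annotation lists it as the pseudogene H2-Ea-ps, which was listed at 0 in all 12 libraries. H2-Eb1 maps to chromosome 17 (34442828 to 34453144, plus strand) and has 7 merged exons of 1189 bases. Its normalized read counts were 24.9, 23.7 and 31.1 at P18, 51.1, 39.9 and 45.3 at P75, 78.8, 57.7 and 86.6 at 6 months, and 83.2, 136 and 118 at 24 months. The first 3 ages did not overlap one another, and the lowest library at 24 months lay within the range at 6 months. The means were 26.6 ± 3.97, 45.4 ± 5.62, 74.4 ± 15 and 112 ± 26.9 (SD, n = 3). H2-Eb1 rose by log2 0.75 (SE 0.21, adjusted p = 0.0093), by 0.69 (adjusted p = 0.012) and by 0.58 (adjusted p = 0.063) at the 3 steps. The last call was lost without 6 months replicate 1 (0.63), 6 months replicate 2 (0.41), 24 months replicate 2 (0.43) or 24 months replicate 3 (0.53), and also under scaling to the same total (0.54). H2-Eb2, its neighbour on chromosome 17 from 34462610 to 34477174, had 0 to 6 reads per library, 30 in all, and was not tested.

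Ciita maps to chromosome 16 (10480237 to 10527657, plus strand) and has 24 merged exons of 7829 bases. Its normalized read counts were 7.13, 10.2 and 6.03 at P18, 10, 8.34 and 9.95 at P75, 15.4, 15.1 and 12.7 at 6 months, and 6.93, 9.73 and 12 at 24 months. All libraries at 6 months lay above those at P75 and above those at 24 months, while P18, P75 and 24 months overlapped. The means were 7.78 ± 2.14, 9.44 ± 0.950, 14.4 ± 1.52 and 9.56 ± 2.55 (SD, n = 3). They rested on 21, 28, 49 and 29 reads summed over the libraries of an age, and the counting intervals of the means, which cover counting error only, were 4.81 to 11.9, 6.27 to 13.6, 10.6 to 19.0 and 6.40 to 13.7. None of the differences passed the test: 0.27 (adjusted p = 0.52) from P18 to P75, 0.56 (adjusted p = 0.15) to 6 months and -0.57 (95% interval -1.24 to 0.11, adjusted p = 0.22) to 24 months. From P75 to 24 months it was -0.01 (95% interval -0.68 to 0.67), a direction that turned under 7 alternatives. At this depth a change of Ciita within these intervals was not detectable.

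**Figure D1:**
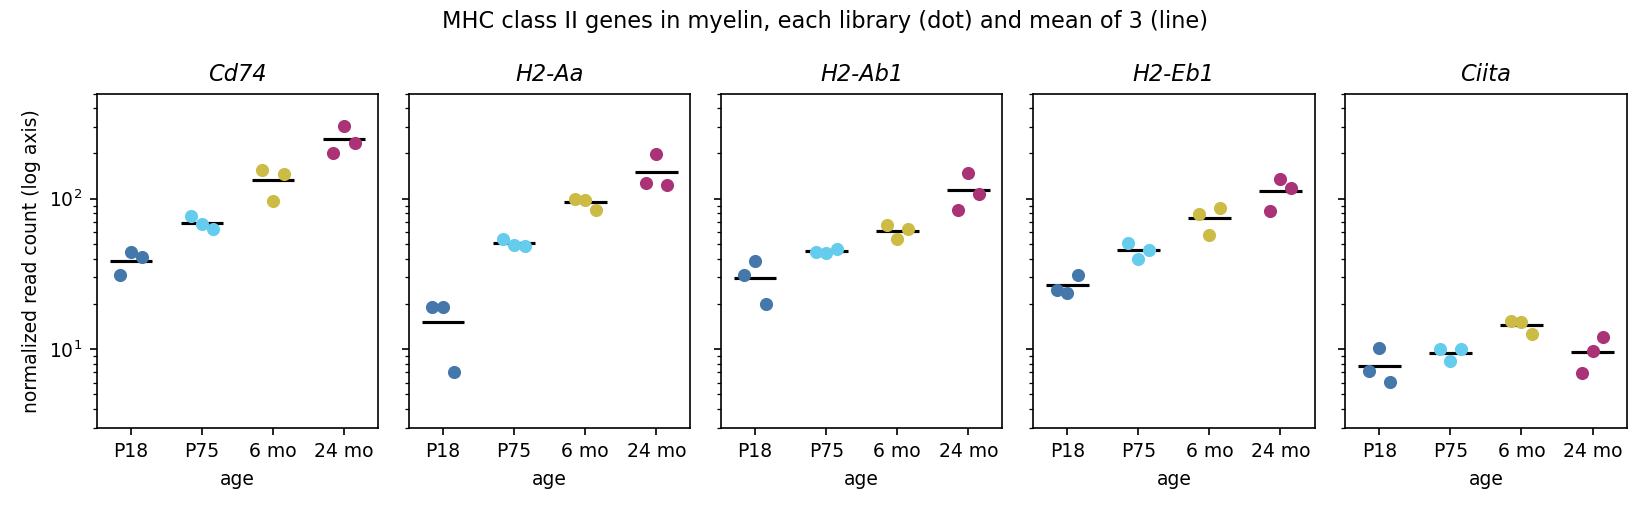
Normalized read count (log axis) of each class II gene against age, 1 panel a gene, with dots for the 3 libraries of an age in replicate order and a line for their mean. Cd74 goes from a mean of 38.7 to 247 and H2-Aa from 15.1 to 150, while Ciita lies between 6.03 and 15.4 at all ages.

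Divided by merged exon length, Cd74 was the highest of the 5 at 24 months, with a mean of 175 normalized read counts per kilobase, against 94.5 for H2-Eb1, 75.3 for H2-Aa, 69.1 for H2-Ab1 and 1.22 for Ciita. Libraries of H2-Eb1 spread from 70.0 to 115, of H2-Aa from 62.0 to 100 and of H2-Ab1 from 51.2 to 90.1, so the ranges overlapped. Within each of these libraries H2-Eb1 (70.0, 115 and 98.9 in replicates 1, 2 and 3) stood above H2-Aa (63.8, 100 and 62.0) and H2-Ab1 (51.2, 90.1 and 65.9). The order of H2-Aa and H2-Ab1 differed between libraries. The order of the 3 chains depended on the length used. With the longest annotated transcript H2-Aa came to 132, H2-Eb1 to 95.4 and H2-Ab1 to 93.8, below Cd74 at 175 and above Ciita at 1.81.

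Counted by comparison, the 5 genes stood against a background in which large parts of the transcriptome changed with age. From P18 to P75, 4 of 5 were higher and 0 lower, where 25.9% of the 14634 genes tested were higher and 22.9% lower. From P75 to 6 months it was 3 of 5 higher and 0 lower (background 31.2% higher and 29.4% lower), and from 6 to 24 months 3 of 5 higher and 0 lower (16.6% and 12.7%). The count from 6 to 24 months fell to 1 without 24 months replicate 2, the library with the highest values of Cd74, H2-Aa, H2-Ab1 and H2-Eb1. From P18 to 24 months 4 of 5 were higher and 0 lower (34.7% and 34.3%), and from P75 to 24 months 4 of 5 were higher and 0 lower (28.8% and 26.1%). The median log2 change of the 5 genes was 0.75, 0.69 and 0.63 at the 3 steps, 2.02 from P18 to 24 months and 1.29 from P75 to 24 months. Over all genes tested the medians were 0.015, 0.005, 0.028, -0.010 and -0.004. Comparisons that share an age share its 3 libraries and are not independent of one another. With scaling to the same total, the share of higher genes among all calls went from 53% to 72.2% from P18 to P75 and from 56.8% to 46.3% from 6 to 24 months, and the median of all genes moved by 0.124 and -0.04. Cd74, H2-Aa, H2-Ab1 and H2-Eb1 kept their direction in all 300 combinations of gene, comparison and alternative setting.

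Among all genes tested H2-Aa ranked 21, Cd74 80, H2-Eb1 262, H2-Ab1 320 and Ciita 5220 by log2 change from P18 to 24 months. From 6 to 24 months Cd74 ranked 259, H2-Ab1 318, H2-Aa 728, H2-Eb1 884 and Ciita 14199. From P75 to 24 months Cd74 rose by 1.81 (adjusted p = 5.7e-06), H2-Aa by 1.51 (adjusted p = 0.00053), H2-Ab1 by 1.29 (adjusted p = 0.00033) and H2-Eb1 by 1.27 (adjusted p = 0.00018).

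**Figure D2:**
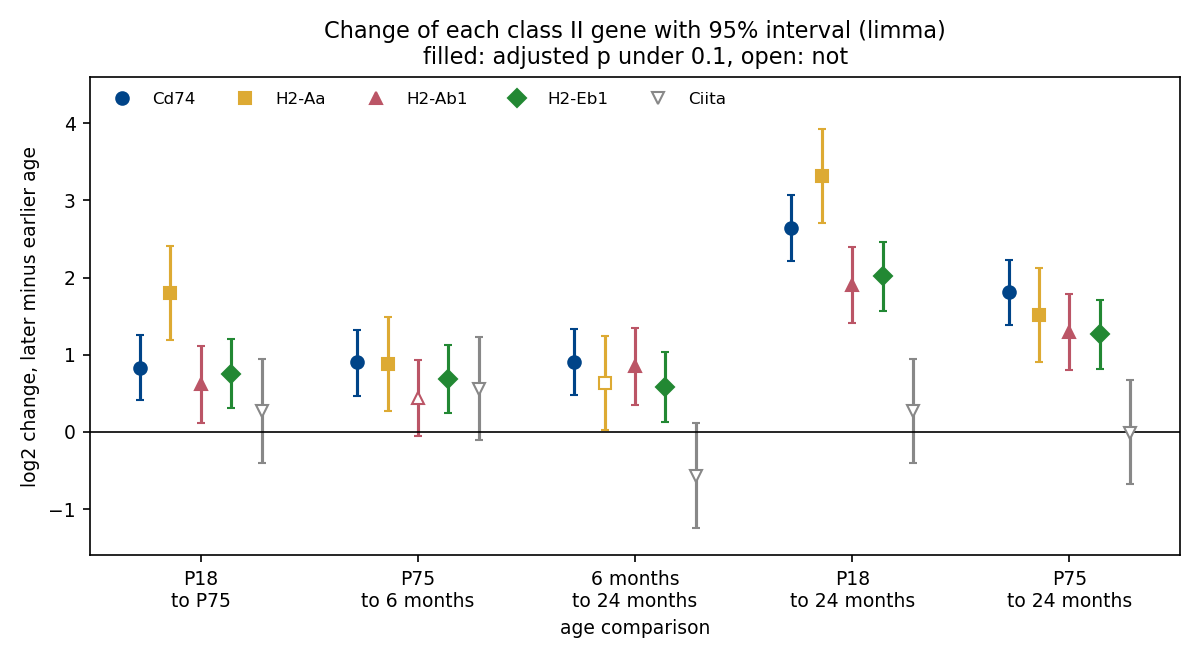
The log2 change (later minus earlier age) of each class II gene with its 95% interval from limma, for the 5 age comparisons; filled symbols passed an adjusted p of 0.1. From P18 to 24 months the symbols of H2-Aa (3.31), Cd74 (2.64), H2-Eb1 (2.02) and H2-Ab1 (1.90) are filled, and that of Ciita (0.27) is open with an interval across 0.

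The chains did not keep a fixed ratio. H2-Aa per H2-Ab1, as levels per kilobase within a library, was 0.509, 0.414 and 0.290 at P18, 1.02, 0.933 and 0.867 at P75, 1.24, 1.51 and 1.11 at 6 months, and 1.25, 1.11 and 0.941 at 24 months. All P18 libraries lay below all later ones. Cd74 per mean of the 3 chains, per kilobase, ranged from 1.33 to 2.32 over the 12 libraries, with means of 1.73, 1.62, 1.89 and 2.22. Its values at 24 months (2.32, 2.13 and 2.21) lay above those of all earlier libraries, the highest being 2.11 in 6 months replicate 1. The sum of Cd74, H2-Aa, H2-Ab1 and H2-Eb1 per Ciita was 14.8, 12.3 and 16.5 at P18, 22.6, 24.0 and 20.4 at P75, 26.0, 20.3 and 30.0 at 6 months, and 71.6, 81.0 and 48.6 at 24 months. All libraries at 24 months lay above those of the other ages, with the denominator at 7 to 13 reads. These ratios are descriptions and were not tested.

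Over the 12 libraries, Pearson's r of log2 values between pairs of Cd74, H2-Aa, H2-Ab1 and H2-Eb1 was 0.89 to 0.98, and between Ciita and each of them 0.42 to 0.56. The libraries fall into 4 ages, so r describes the shared age profile and has no p. By r to the mean standardized profile of the 5 genes, the closest other genes were Cyp7b1 (0.985), Arsk (0.984), Pcdh10 (0.984), Derl2 (0.982), Ptges (0.982), Entpd3 (0.981), 6720456H20Rik (0.981), Sgpp2 (0.981), Tmed10 (0.98) and Cd164 (0.98). The members themselves had a lower r to it, with 0.954 for Cd74, 0.965 for H2-Aa, 0.948 for H2-Ab1, 0.949 for H2-Eb1 and 0.64 for Ciita. The named genes are thus close to a mean that includes Ciita, and their r to a profile without Ciita was not computed. An r of at least 0.9 was reached by 1315 of the 14629 other genes tested (8.99%), so many genes followed this profile. Leaving out a library kept 3 to 9 of the 10 names.

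The peptide loading genes lie in the same region of chromosome 17. H2-DMa and H2-DMb1 encode the chains of H2-DM, which loads the peptide, and H2-Oa and H2-Ob those of H2-DO, which restrains H2-DM. Of 5 listed genes 3 passed the filter on low values. All 3 rose from P18 to 24 months (list median 1.74, background 34.7% higher), while 1 of 3 rose from 6 to 24 months (median 0.45, background 16.6%). H2-DMb1 had 17.8, 12.4 and 15.1 at P18, 28.1, 28.7 and 33.2 at P75, 33.3, 45.3 and 49.6 at 6 months, and 61.4, 69.2 and 72.2 at 24 months, without overlap between consecutive ages. It rose by log2 2.10 (adjusted p = 2.7e-07) from P18 to 24 months and by 0.67 (adjusted p = 0.037) from 6 to 24 months. H2-DMa had 115, 141 and 92.4 at P18, 84.2, 92.7 and 87.3 at P75, 162, 133 and 163 at 6 months, and 198, 163 and 180 at 24 months. It fell by 0.38 (adjusted p = 0.059) to P75, where the class II chains rose, and then rose by 0.78 (adjusted p = 0.00047) to 6 months. H2-Ob rose by 1.74 (adjusted p = 0.003), the value of the list median, from P18 to 24 months on 2 to 26 reads per library. H2-DMb2, with 0 to 8 reads, and H2-Oa, with means of 8.05, 5.73, 10.7 and 12.2, were not tested.

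Of 5 listed genes of antigen processing 4 had a row and were tested. All 4 rose both from P18 to 24 months (median 1.16, background 34.7% higher) and from 6 to 24 months (median 0.60, background 16.6%). Ctss, cathepsin S, which trims the invariant chain, had 1403, 1394 and 1121 at P18, 2576, 2503 and 2924 at P75, 3105, 2963 and 2583 at 6 months, and 4761, 5706 and 6272 at 24 months. It rose by 2.09 (adjusted p = 6.2e-10) from P18 and by 0.95 (adjusted p = 0.00022) from 6 months. Ctsl, cathepsin L, rose by 1.28 and 0.49, the protease Lgmn by 1.04 and 0.31, and Ifi30, a reductase of disulfide bonds in endosomes, by 0.83 and 0.72. Ifi30 had 80.4, 89.7 and 80.8 at 6 months against 117, 163 and 137 at 24 months, without overlap.

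The genes of the factors that sit on the X and Y boxes were not called higher. Of 7 tested genes 0 were higher in any of the 5 comparisons, where 16.6% to 34.7% of all genes tested were. From P18 to 24 months 4 fell (median -0.63, background 34.3% lower). From 6 to 24 months 0 passed the test in either direction (median -0.03, background 16.6% higher and 12.7% lower). Rfxap, a subunit of the RFX complex, went from 1078, 950 and 1166 at P18 to 536, 518 and 537 at 24 months, a fall without overlap (log2 -1.0, adjusted p = 1.8e-07). The NF-Y subunits Nfya, Nfyb and Nfyc fell by 0.71, 0.63 and 0.71. Rfx5 (-0.06, 95% interval -0.29 to 0.17), Rfxank (-0.13) and Creb1 (-0.07) missed the threshold.

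Interferon gamma is the classical inducer of Ciita. From P18 to 24 months 3 of 5 listed genes of its pathway were higher and 0 lower (median 0.38, background 34.7% and 34.3%). From 6 to 24 months 1 was higher and 1 lower (median 0.12, background 16.6% and 12.7%). The receptor gene Ifngr1 had 219, 207 and 282 at P18 against 518, 556 and 679 at 24 months and rose by 1.31 (adjusted p = 2.8e-07), and by 0.39 (adjusted p = 0.048) from 6 months. Ifngr2, the second receptor chain, rose by 0.38 and the transcription factor Irf1 by 0.41 (adjusted p = 0.067) from P18 to 24 months. The kinase gene Jak1 fell by 0.52 (adjusted p = 0.0012) from 6 to 24 months.

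The ubiquitin ligases that remove class II molecules from the cell surface moved apart. March1 rose by 1.46 (adjusted p = 1.6e-07) from P18 to 24 months, from 265, 282 and 232 to 796, 703 and 651, while March8 fell by 0.78 (adjusted p = 0.0011). From 6 to 24 months 0 of these 2 passed the test (background 16.6% higher and 12.7% lower). Of the costimulatory genes, whose products act beside class II on T cells, Cd86 was tested and rose by 1.49 (adjusted p = 6.2e-06) from P18 and by 0.69 (adjusted p = 0.024) from 6 months, with 69.1, 54.1 and 54.5 at 6 months and 74.3, 98.4 and 120 at 24 months. Cd80 and Cd40 were too low to be tested. Mif, the cytokine that binds Cd74, fell by 0.93 (adjusted p = 4.9e-06) from P18 to 24 months, while its coreceptor genes Cd44 and Cxcr4 rose by 0.80 and 0.95. Cd44 also rose from 6 to 24 months, by 0.35 (adjusted p = 0.081).

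**Figure D3:**
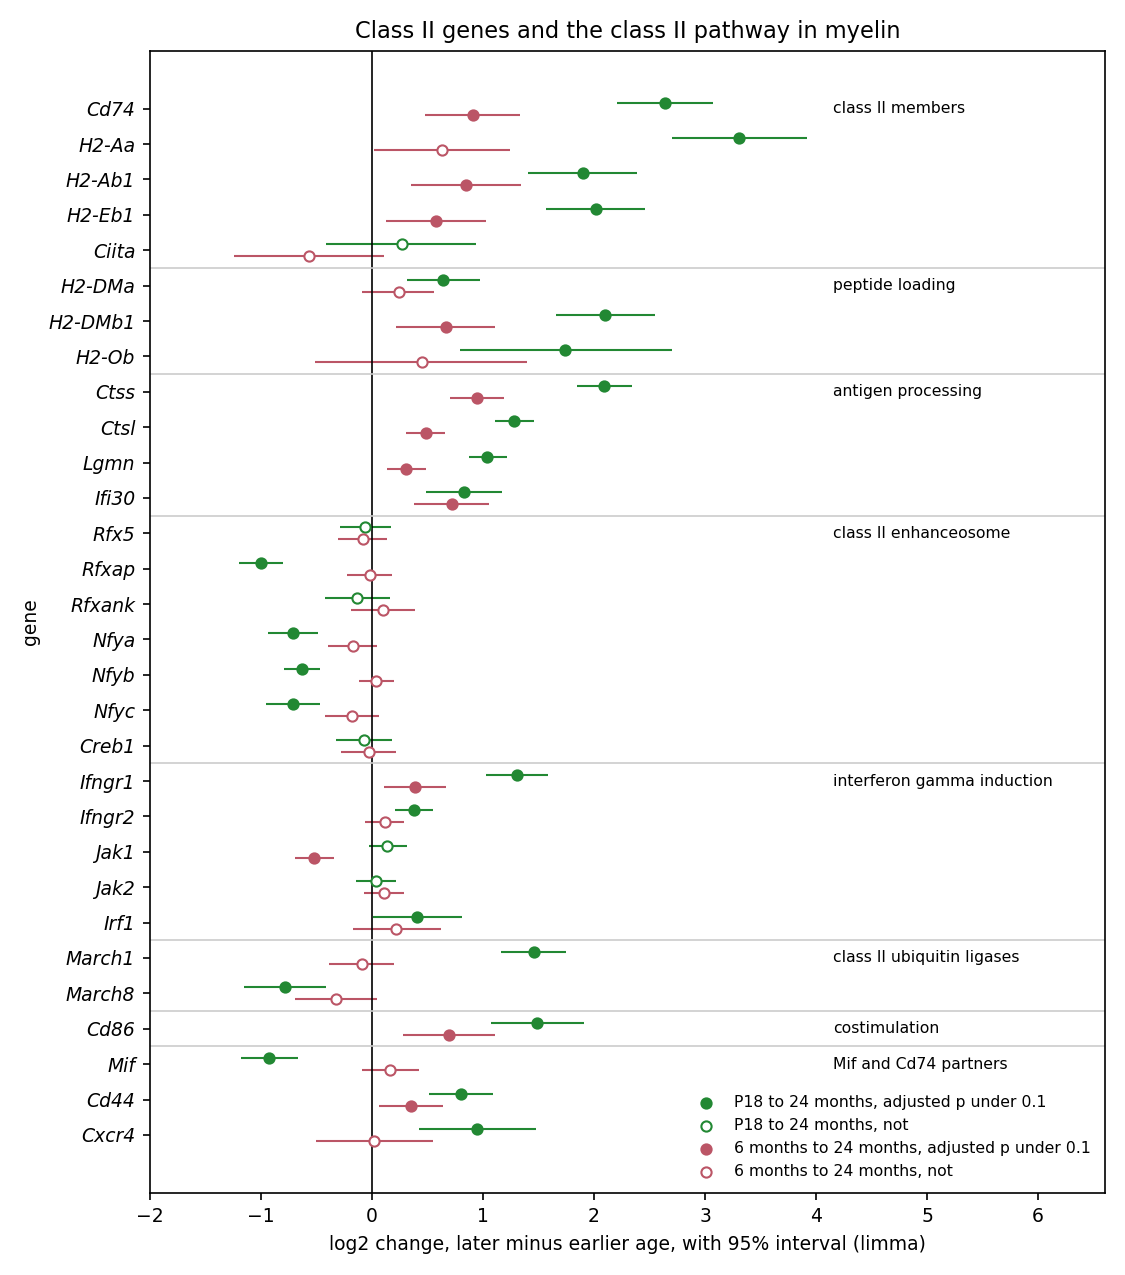
The log2 change with its 95% interval from limma for the class II genes and the tested genes of their pathway, grouped by role, from P18 to 24 months and from 6 to 24 months; filled dots passed an adjusted p of 0.1. The chains, H2-DMb1 (2.10) and Ctss (2.09) lie to the right, and Rfxap (-1.0) and the NF-Y subunits to the left in the longer comparison.

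Markers of other cells moved with age too, and their part in the class II values was not tested. In these bulk libraries more cells of a type and more RNA per cell cannot be told apart. The summed normalized read count of 6 myelin genes was 335002 to 603861 at P18, 186097 to 247460 at P75, 232308 to 320965 at 6 months and 236200 to 265318 at 24 months. All 6 fell from P18 to P75 (median -1.12, background 22.9% lower), where the class II chains rose. At 24 months 5 of 6 were lower than at P18 (median -1.27, background 34.3% lower). The 4 hemoglobin genes of the red blood cell list were listed at 0, while Alas2, an enzyme of heme synthesis and the fifth gene of that list, had a mean of 416 at P18 and 36.0 to 41.1 at the later ages. The summed count of 12 microglial markers was 6866 to 7818 at P18, 9776 to 10841 at P75, 11344 to 12750 at 6 months and 17238 to 21200 at 24 months, without overlap. Of the 12, 11 rose from P18 to 24 months (median 1.38, background 34.7% higher) and 7 from 6 to 24 months (median 0.73, background 16.6%). From P75 to 6 months 6 rose and 2 fell (median 0.28, background 31.2% higher and 29.4% lower). Aif1 went from a mean of 388 to 189 and Tyrobp from 829 to 677, while Cd74, H2-Aa and H2-Eb1 rose. The sum of 8 genes of activated microglia went from 1915 to 2006 at P18 to 6352 to 6644 at 24 months. From 6 to 24 months 7 of the 8 rose (median 1.62, background 16.6% higher). Among them was Itgax, with 6.50, 6.21 and 4.87 at 6 months and 23.8, 41.1 and 47.2 at 24 months. Means in age order were 4.53, 3.94, 5.86 and 37.4 for Itgax and 4.47, 4.85, 7.86 and 91.1 for Cst7. Both passed the filter only through 24 months, so their rise is not independent of the filter.

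The class II sum was set against the microglial sum in each library. The sum of Cd74, H2-Aa, H2-Ab1 and H2-Eb1 was 1.35%, 1.61% and 1.45% of it at P18, 2.28%, 2.05% and 1.88% at P75, 3.15%, 2.49% and 3.35% at 6 months, and 2.88%, 4.07% and 2.76% at 24 months. The first 3 ages did not overlap, and 6 and 24 months did. The mean share in age order was 1.47% ± 0.131, 2.07% ± 0.201, 3.0% ± 0.450 and 3.24% ± 0.724 (SD, n = 3).

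**Figure D4:**
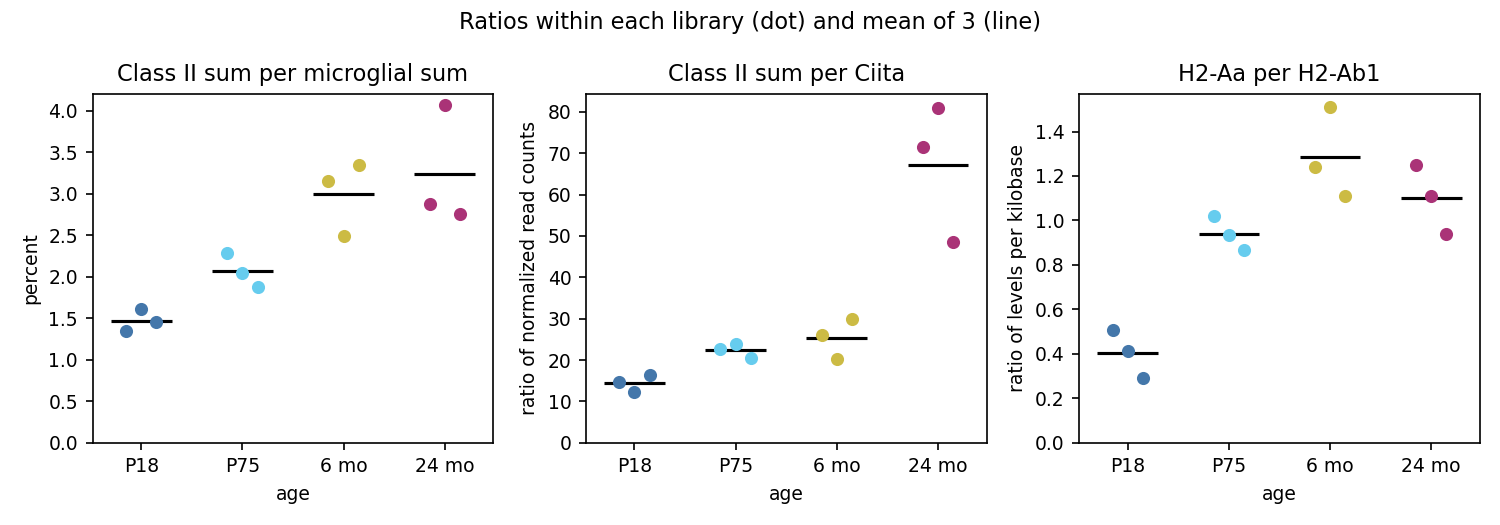
Ratios within each library (dots) with the mean of the 3 libraries (line) against age: the class II sum as a percent of the sum of 12 microglial markers, the class II sum per Ciita, and H2-Aa per H2-Ab1 per kilobase. The first rises from a mean of 1.47% at P18 to 3.0% at 6 months and 3.24% at 24 months, and in the second all libraries at 24 months (48.6 to 81.0) lie above the rest.

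Markers of other cells were summed in the same way. The 7 markers of perivascular and border macrophages summed to 304 to 394 at P18, 248 to 281 at P75, 258 to 266 at 6 months and 284 to 360 at 24 months. Of the 7, 2 rose and 2 fell from P18 to 24 months (median -0.17, background 34.7% higher and 34.3% lower). From P75 to 24 months 4 rose and 1 fell (median 0.46, background 28.8% and 26.1%). Among them Ms4a7 had means of 5.79, 11.7, 16.0 and 30.1 in age order and rose from P18 to 24 months by log2 2.19 (adjusted p = 5.9e-05). By mean, Mrc1 went from 68.8 at P18 to 96.5 at 24 months and Cd163 from 45.6 to 54.0. The means of the rest were lower at 24 months. Cbr2 went from 63.3 to 20.2, F13a1 from 93.1 to 50.7, Lyve1 from 36.4 to 28.1 and Pf4 from 35.1 to 30.3. The 7 dendritic cell markers summed to 328 to 391 at P18, 516 to 551 at P75, 611 to 729 at 6 months and 753 to 816 at 24 months, where the class II sum was 496 to 788. Most of it was Flt3 and Siglech, the latter also known from microglia, and 3 of the 4 tested rose from P18 to 24 months (median 1.23, background 34.7% higher). Xcr1, Clec9a and Ccr7 were low at all ages and were not tested. Cd209a rose most of these 3 called higher (log2 3.4, adjusted p = 3.4e-05), with 2.38, 1.13 and 0 at P18, 2, 3.71 and 1.11 at P75, 11.4, 16.9 and 21.4 at 6 months, and 9.91, 30.3 and 24.1 at 24 months. Cd209a passed the filter only through its libraries at 6 and 24 months, so its rise is not independent of the filter. It rose by log2 2.46 (adjusted p = 0.001) from P75 to 6 months, and its highest value was in 24 months replicate 2, the library with the highest class II values. The 4 B cell markers summed to 9.76 to 24.3 over all ages, and Ms4a1 and Pax5 together had 0 to 4 reads per library. The 5 T cell markers summed to 144 to 239 at P18 and 118 to 158 at 24 months, most of it Cd4. The T cell receptor genes Cd3d, Cd3e and Cd3g together had 3, 1 and 0 reads at P18, 4, 3 and 4 at P75, 7, 3 and 2 at 6 months, and 15, 11 and 18 at 24 months, so the libraries at 24 months stood above all others. The 4 markers of monocytes and neutrophils summed to 30.5 to 130, 77.2 to 189, 20.4 to 30.9 and 52.8 to 284 in age order. Of these S100a8 and S100a9, abundant in neutrophils, had 50.5, 114 and 13.9 and 70.3, 151 and 35.2 at 24 months. The highest of each was in 24 months replicate 2, while the microglial sum was highest in 24 months replicate 3 (21200 against 19357 in replicate 2). At P75 the highest of S100a8 and S100a9 were in replicate 3, with 78.5 and 103, a library whose class II values lay with those of the other libraries of that age. What any of these cells added to the class II values was not tested.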

How the data were processed

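RNA of purified myelin was sequenced in 12 libraries, 3 at each of 4 ages, grouped by the age in the labels. The deposited signal is the normalized read count that the authors obtained by aligning to mm9, counting reads per gene and dividing by DESeq size factors. The submitters' processing notes name TopHat2 2.0.8, SAMtools 0.1.19, HTSeq 0.5.4p1 and DESeq. The annotation and strand setting are not given in the sources used here. The values are not corrected for gene length. Within a library 100% of the values were whole multiples of 1 read (tolerance 0.1 read), which gave the reads behind each value.

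Ages were compared with limma 3.58.1 (trend, empirical Bayes) in R 4.3.3 on log2(normalized read count + 1) of 14634 genes (mean not under 10), all 12 libraries in 1 fit with age alone, called at a Benjamini-Hochberg adjusted p under 0.1. The script was tested on simulated data. Exact tests of 3 against 3 cannot go below 0.1 and were not used. Alternatives were other pseudocounts, no filter, a fit of the 2 ages alone, the replicate block, scaling to the same total, TMM, edgeR 4.0.16 and DESeq2 1.42.0 on recovered reads, a stricter threshold and each library left out. Same-numbered libraries deviated together from P75 to 6 months (r = 0.161, 0.101 and 0.187 for numbers 1, 2 and 3) and not in the other comparisons, where r was at most 0.029. The labels do not say what the numbers share.

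The named genes are the 5 class II genes, every gene of 8 pathway lists called from P18 or from 6 months to 24 months, and the 10 genes most like the class II profile. Genes named with values beyond these were chosen after their values were seen. The members and lists were chosen with earlier results of these data known. Lists are described by counts and medians, without a test. Some listed genes are not reported here and were left out of the counts. Python 3.11.15, pandas 2.3.3, numpy 2.4.6 and matplotlib 3.10.9 were used for descriptions and plots.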

Additional observations from a re-analysis of the deposited data

How the results depend on the processing

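Values of Cd74, H2-Aa, H2-Ab1 and H2-Eb1 kept their direction in all 300 combinations of gene, comparison and alternative. Of these, 286 also kept their side of the threshold, 8 lost it and 6 gained it. The count of class II genes called from 6 to 24 months ranged from 1 to 3 when 1 library was left out, with 1 without 24 months replicate 2. With the replicate number as a block, H2-Aa from 6 to 24 months (0.63) passed and the count was 4, as it was with a pseudocount of 10, a fit of the 2 ages alone, edgeR and DESeq2. The count was 2 at an adjusted p under 0.05 and with scaling to the same total. Without 24 months replicate 2 the difference of H2-Aa was 0.41. The block changed no other class II call. H2-Ab1 from P75 to 6 months (0.44) passed in the fit of the 2 ages alone. Ciita passed in none of its 75 combinations of comparison and alternative. Its difference from P75 to 24 months, -0.01, became 0 with a pseudocount of 10, 0 with TMM, 0.05 with edgeR and 0.03 with DESeq2, and ranged from -0.17 to 0.18 when 1 library was left out, turning without P75 replicate 1, P75 replicate 3 or 24 months replicate 1. The cause was not tested. The values of Ciita rest on 6 to 19 reads per library.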
